A study of Homo sapiens with 60 samples.

Results

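Described here are 9 genes of drug and xenobiotic disposal in HT29 cells, of 60675 genes in the deposited table. They are 3 UDP-glucuronosyltransferases (UGT1A6, UGT1A1 and UGT1A10), 5 ATP-driven efflux pumps (ABCC1, ABCC2, ABCC3, ABCG2 and ABCB1) and POR, the electron donor of the microsomal cytochromes P450. They were taken by symbol through the Ensembl identifier of each row, from a list chosen with earlier results of these data known. All 9 had a row and all 9 passed the filter on low counts, which left 16608 genes.

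HT29 is a human cell line established from a colorectal adenocarcinoma. The cells were treated for 24 h and bulk RNA was sequenced, giving 60 libraries in 20 groups of 3. Water extracts of 6 herbal medicines were each given at a high, a medium and a low dose. Zingiberis Rhizoma Recens (fresh ginger in the text that follows), Zingiberis Rhizoma (ginger), Pinelliae Tuber, Scutellariae Radix and Zizyphi Fructus were given at 500, 100 and 20 µg/mL, and Coptidis Rhizoma at 290, 58 and 11.6 µg/mL. The remaining groups received vehicle, DMSO at 0.1% by the sample labels (the series' own text states a higher share), or wortmannin at 10 µM, a blocker of phosphoinositide 3-kinase that served as positive control. Nothing in the labels tells whether the extracts contained DMSO, or whether a group's libraries are separate cultures. The p-values therefore measure the spread between these libraries alone, and that spread may be technical. In bulk libraries a level is a share of all RNA, so fewer cells with a transcript and less of it per cell cannot be told apart.

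Glucuronidation joins glucuronic acid to a lipophilic compound and makes it soluble and ready for export. In colon epithelium the UGT1A enzymes conjugate phenols, flavonoids, bilirubin and many drugs inside the endoplasmic reticulum. The charged products leave the cell through ABC pumps. Of the pumps described here, ABCC2, ABCG2 and ABCB1 face the lumen, while ABCC3 and ABCC1 face the blood side. Transcription of several of these genes is known to be raised by the aryl hydrocarbon receptor (AhR), which senses planar aromatic ligands, and by NRF2, which senses electrophiles.

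The total per library ran from 11.1 to 34.4 M counts, with a median of 23.4 M (M stands for 1e6). By the codes in the sample descriptions, vehicle (A1) and wortmannin (1) each stand alone in a set, both gingers share a set, Pinelliae Tuber shares one with Scutellariae Radix, and Zizyphi Fructus shares one with Coptidis Rhizoma. A treatment against vehicle is therefore also a comparison between sets, and treatment and set cannot be told apart, whereas the doses of an extract all belong to the same set. All treatments were compared with the same 3 vehicle libraries. Of 12 colon epithelium markers, 12 had counts in every library, with summed levels of 10260 to 15630 counts per 1e6 (CPM) per library. Markers of other cells summed to 11.1 to 19.4 CPM, most of it from CD68 and CD14, while CD3E was at 0 in 57 libraries, CDH5 in 58 and ALB in 55. On the second principal component 4 libraries stood apart (replicate 1 of vehicle and of fresh ginger low, replicate 2 of ginger high, and replicate 3 of Zizyphi Fructus high), with 6.32 to 8.23% of counts from ribosomal-protein genes. The Coptidis Rhizoma high libraries had 6.43 to 7.24% and lay far from all others on the first component (71.9 to 74.4), whereas the remaining libraries had at most 5.85%; the part of this share in the results was not tested. Calls of the 9 genes that are lost without them are named where they stand.

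The high doses of fresh ginger, ginger and Scutellariae Radix raised the UGT1A genes together, by 1.21-fold to 1.51-fold against their own low dose. ABCC2 rose 2.94-fold with Scutellariae Radix and 2.34-fold with fresh ginger, from a very low level. Coptidis Rhizoma gave a divided picture: UGT1A6, ABCC3 and POR rose while UGT1A1, ABCC1 and ABCG2 fell. With Pinelliae Tuber and Zizyphi Fructus none of the 9 genes was called by edgeR. Wortmannin could be compared only with vehicle, which lies in another set. Against it, ABCC2, ABCC3 and ABCG2 were higher and UGT1A6 and UGT1A1 lower. A gene is called here when its p-value from edgeR's quasi-likelihood test, adjusted by the Benjamini-Hochberg method over all 16608 genes, is below 0.05.

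**Figure D1:**
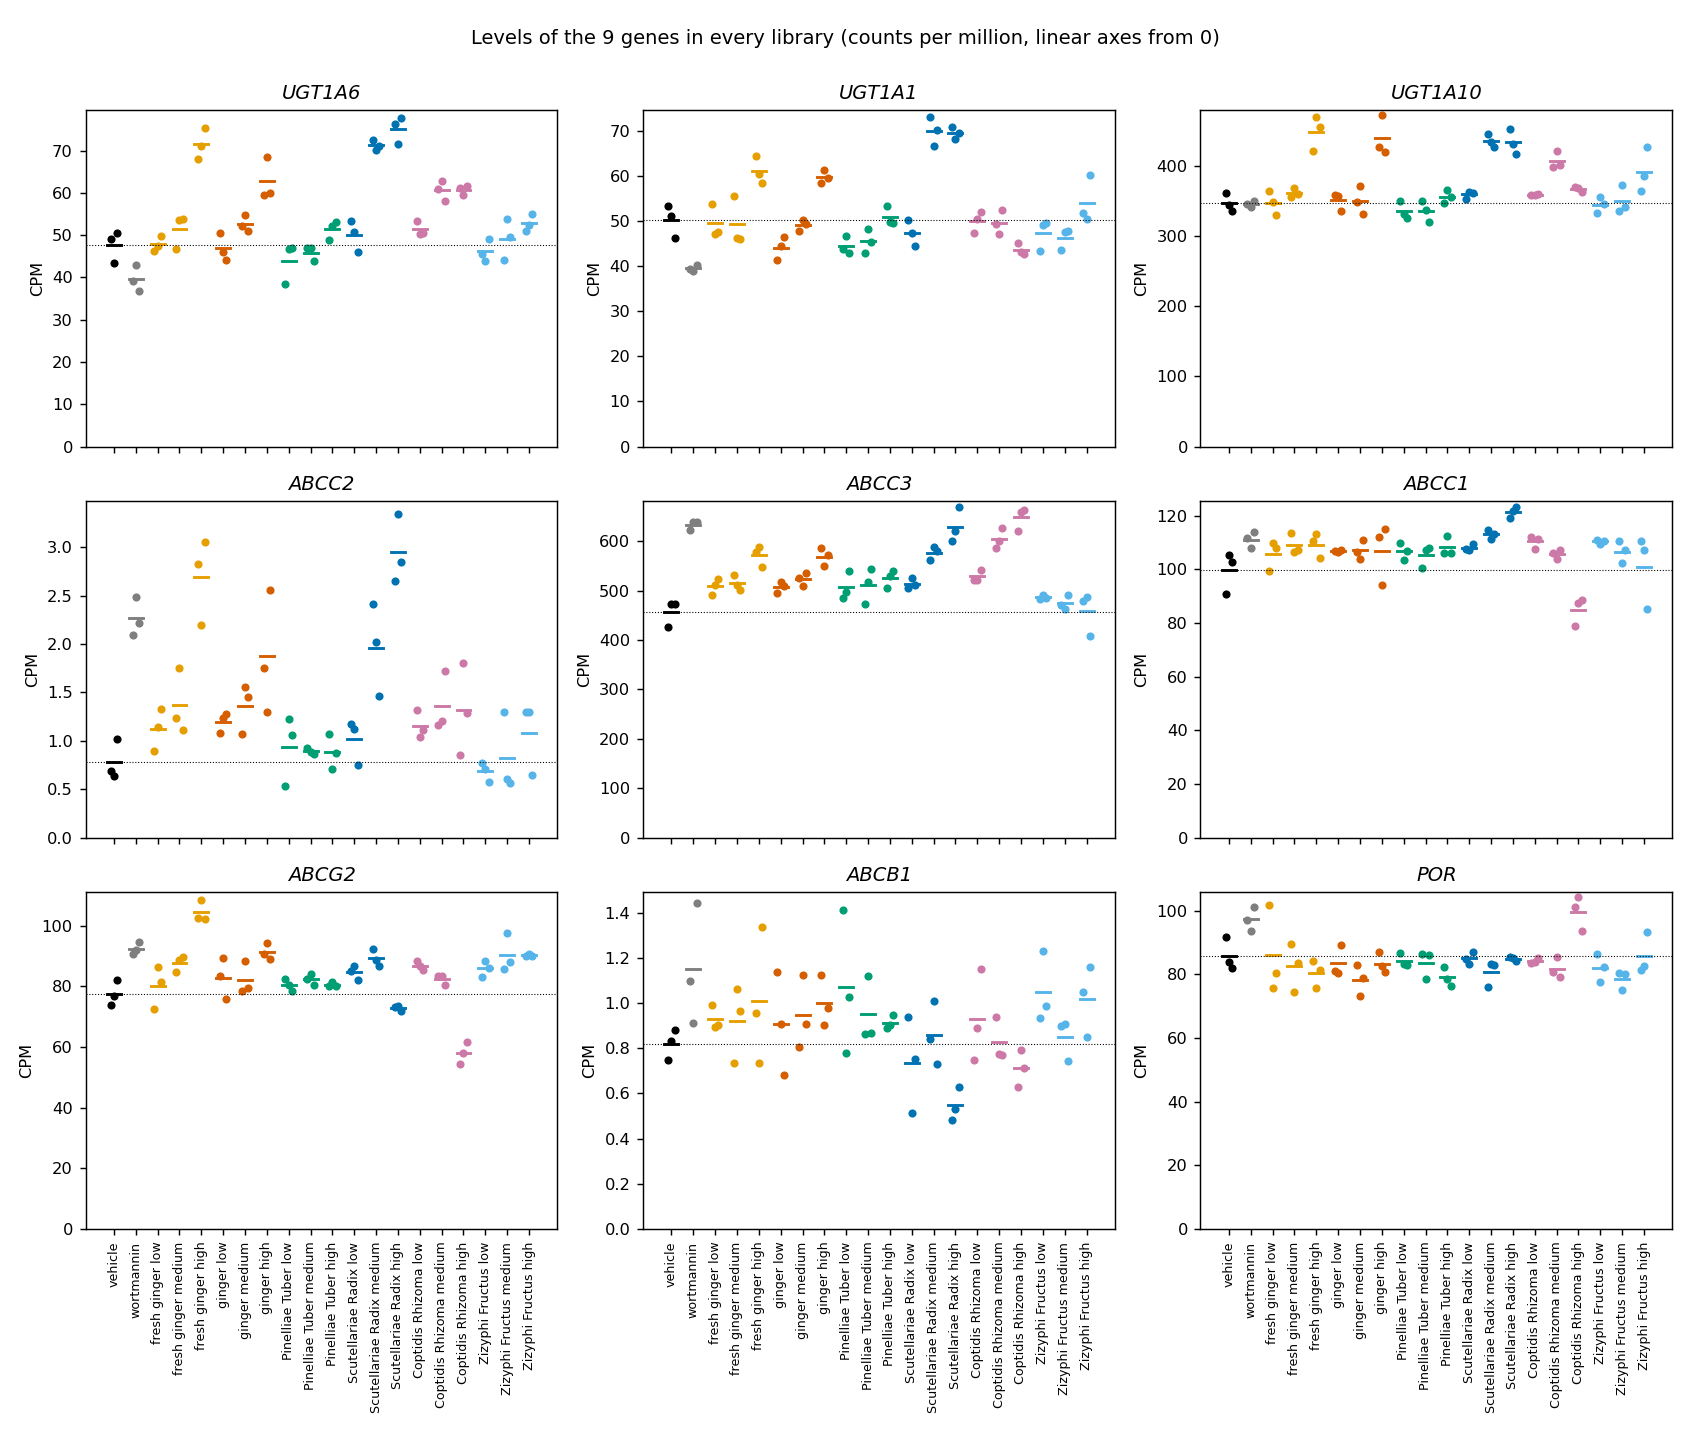
Levels of the 9 genes in CPM (vertical axes, linear and starting at 0) in the 20 groups; points are the 3 libraries of a group, bars their mean and dotted lines the vehicle mean. UGT1A6 is highest in Scutellariae Radix high (75.2 CPM) and lowest in wortmannin (39.7 CPM), and ABCC2 spans 0.689 to 2.95 CPM.

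The UGT1A enzymes come from a single locus on chromosome 2. Each of its 9 genes begins with a first exon of its own and then shares the same 4 exons, the first of which is at chr2:233767034-233767165 (GRCh38, GENCODE 29, plus strand). The first exon of UGT1A10 (ENSG00000242515) is at chr2:233636454-233637377, that of UGT1A6 (ENSG00000167165) at chr2:233692866-233693865 and that of UGT1A1 (ENSG00000241635) at chr2:233760248-233761151. The sequences of 4 genes across that border are shown because the division of reads rests on them. Each runs 5′ to 3′ across the junction of the first and second exon of the reference transcript, with the last bases of the gene's own exon in lower case and the first shared bases in capitals.
UGT1A10: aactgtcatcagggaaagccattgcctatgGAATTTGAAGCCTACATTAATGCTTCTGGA
UGT1A8: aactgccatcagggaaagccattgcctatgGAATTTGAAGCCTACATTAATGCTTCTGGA
UGT1A6: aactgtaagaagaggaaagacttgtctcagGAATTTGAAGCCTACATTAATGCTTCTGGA
UGT1A1: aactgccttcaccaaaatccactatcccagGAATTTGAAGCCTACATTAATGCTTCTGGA
In the 30 lower-case bases, UGT1A10 and UGT1A8 differ at 1 position, and the other pairs shown at 11 to 16. Over the whole first exon UGT1A10 and UGT1A8 are 94.4% identical (867 of 918 bases), whereas the other pairs reach 56.8 to 60.8%. The shared exons take up the larger part of every transcript, since the own exon is 36.6 to 40.3% of its length. RSEM, which made the counts, divides reads of shared sequence between genes, and counts of UGT1A6 and UGT1A10 were not whole in 100% of libraries. Values of single UGT1A genes are therefore uncertain, that between UGT1A10 and UGT1A8 most of all, and the summed locus is given beside them.

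By the deposited division UGT1A10 took 65.9 to 70.4% of the locus's counts (range of group means), UGT1A8 10.9 to 12.7%, UGT1A6 8.09 to 11.4% and UGT1A1 8.06 to 10.7%. Levels per kilobase used the merged length of all annotated exons of a gene. By that length UGT1A10 stood at 110 CPM per kb in vehicle, above ABCC3 (47.6), ABCG2 (15.4), POR (14.1), ABCC1 (13.2), UGT1A1 (11.3) and UGT1A6 (9.20). ABCB1 (0.141) and ABCC2 (0.0997) stood far below the rest. The merged length was 5180 bases for UGT1A6, 4467 for UGT1A1 and 3157 for UGT1A10. Their reference transcripts have 2479, 2382 and 2408 bases, so the places of UGT1A1 and UGT1A6 in this order depend on the length chosen. UGT1A10, an extrahepatic isoform of the gut, and ABCC3, a basolateral exporter of glucuronides, thus had the highest levels of the 9 genes in these cells.

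**Figure D2:**
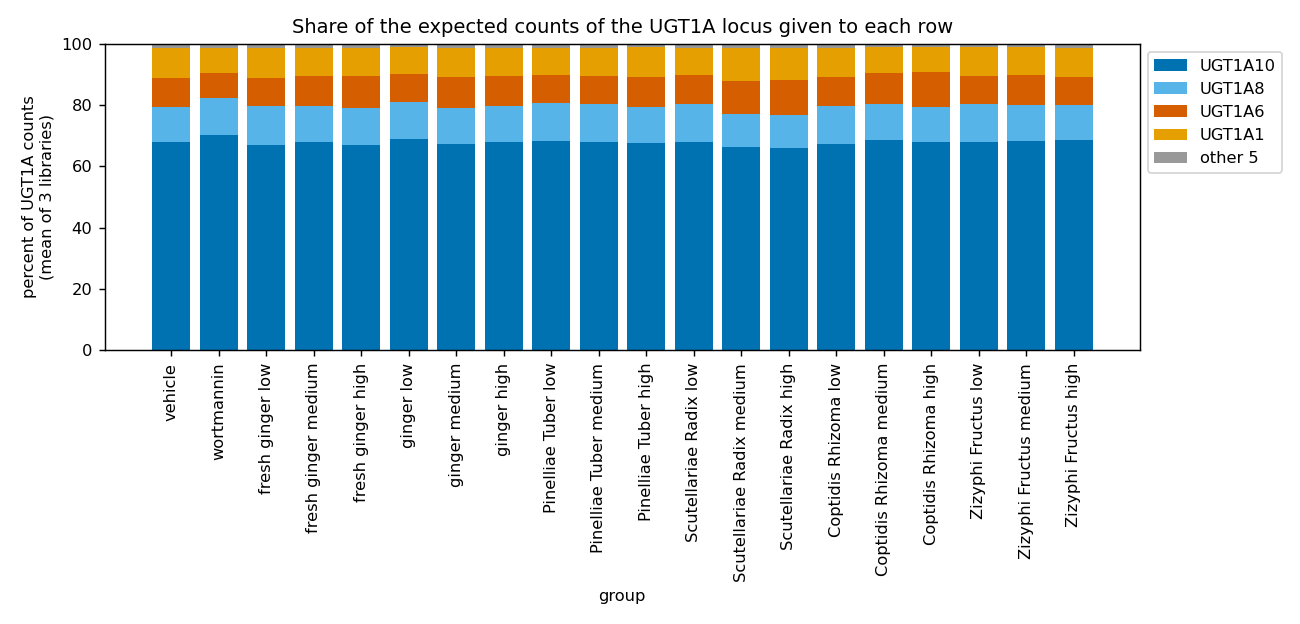
Share of the counts of all 9 UGT1A genes (vertical axis, percent, from 0 to 100) taken by UGT1A10, UGT1A8, UGT1A6, UGT1A1 and the remaining 5 genes in the 20 groups; bars are means of 3 libraries. UGT1A10 takes 65.9 to 70.4% in every group, and the share of UGT1A6 moves between 8.09 and 11.4%.

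UGT1A6, which conjugates simple planar phenols, had the largest ratio of highest to lowest group mean, 1.89, of the 3 UGT1A genes described here. Vehicle libraries stood at 49.0, 43.3 and 50.6 CPM. Fresh ginger gave 68.1, 71.0 and 75.4 CPM at the high dose and 46.3, 47.4 and 49.9 CPM at the low dose. The high-dose libraries all lay above both other groups, which overlapped each other. Against the low dose UGT1A6 rose by 0.58 ± 0.07 on the log2 scale (± approximate SE; adjusted p = 3.77e-07), and against vehicle by 0.59 ± 0.07 (adjusted p = 1.15e-07).

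Scutellariae Radix gave 76.4, 71.5 and 77.7 CPM of UGT1A6 at the high dose, 72.5, 70.1 and 71.1 CPM at the medium dose and 53.3, 50.9 and 45.9 CPM at the low dose. High and medium doses overlapped, and both lay above every low-dose library. The log2 change was 0.59 ± 0.07 for high against low (adjusted p = 3.11e-09) and 0.51 ± 0.07 for medium against low (adjusted p = 5.5e-07). Ginger gave 59.6, 68.6 and 59.96 CPM at the high dose against 50.6, 46.1 and 44.1 CPM at the low dose, a log2 change of 0.42 ± 0.07 (adjusted p = 0.000218). All 3 of these extracts thus had separate high-dose and low-dose libraries for UGT1A6.

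Coptidis Rhizoma gave UGT1A6 levels of 61.1, 59.6 and 61.7 CPM at the high dose, 60.9, 62.8 and 58.2 CPM at the medium dose and 53.3, 50.2 and 50.6 CPM at the low dose. The low dose lay below both others, and the change from low to high was 0.24 ± 0.07 (log2, adjusted p = 0.00264). Wortmannin libraries, at 39.2, 43.0 and 36.9 CPM, lay just below those of vehicle, and UGT1A6 fell by 0.26 on the log2 scale (adjusted p = 0.00805). That call is lost without vehicle replicate 3 (adjusted p = 0.0643) or wortmannin replicate 3 (adjusted p = 0.0732). In the order of group means, wortmannin was lowest at 39.7 CPM, 13 groups lay between 44.0 (Pinelliae Tuber low) and 52.8 CPM (Zizyphi Fructus high), and the 6 highest ran from 60.6 (Coptidis Rhizoma medium) to 75.2 CPM (Scutellariae Radix high). Neighbours in that order overlapped except across 2 steps, from Zizyphi Fructus high to Coptidis Rhizoma medium and from ginger high to Scutellariae Radix medium. The median SD within a group was 4.83% of the mean.

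The RefSeq promoter windows (GRCh38.p14, 250 bases before each start site) of UGT1A6 hold letters of 2 motifs whose factors are named in the background, so those stretches are shown. The AhR core searched was GCGTG and the NRF2 core TGACNNNGC, on both strands, and capitals mark the match.
UGT1A6 chr2:233691489-233691518, plus strand: ggaacaggaactcGCGTGccagccaggtgt
UGT1A6 chr2:233692746-233692845, plus strand: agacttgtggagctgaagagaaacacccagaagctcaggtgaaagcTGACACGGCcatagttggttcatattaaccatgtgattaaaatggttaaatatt
Such letters are common: of 35116 windows in the reference, 32.2% hold GCGTG and 10.9% hold TGACNNNGC. Windows were found for 5 of the 9 genes (UGT1A6, UGT1A1, ABCC2, ABCG2 and ABCB1). Those of ABCC2 and UGT1A1 held neither motif, while GCGTG lay in 3 of 5 windows of ABCG2 and 1 of 2 of ABCB1. A match describes the letters only and is no evidence of binding.

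UGT1A1 is the enzyme that conjugates bilirubin. In vehicle it stood at 53.3, 51.1 and 46.3 CPM. Scutellariae Radix gave 71.0, 68.3 and 69.5 CPM at the high dose, 73.1, 66.7 and 70.2 CPM at the medium dose and 50.3, 47.5 and 44.5 CPM at the low dose. High and medium doses overlapped and both were above the low dose, with log2 changes of 0.56 ± 0.07 (adjusted p = 4.37e-09) and 0.56 ± 0.07 (adjusted p = 1.88e-08). Ginger gave 58.5, 61.3 and 59.6 CPM at the high dose against 41.4, 44.5 and 46.4 CPM at the low dose, which is a log2 change of 0.44 ± 0.07 (adjusted p = 6.94e-05). Against vehicle, ginger high missed the threshold (adjusted p = 0.0534). Fresh ginger gave 64.5, 60.4 and 58.5 CPM at the high dose and 53.8, 47.3 and 47.6 CPM at the low dose (log2 change 0.31 ± 0.07, adjusted p = 0.00689).

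In Coptidis Rhizoma, UGT1A1 moved opposite to UGT1A6. The high dose gave 45.2, 43.1 and 42.7 CPM and the low dose 47.3, 50.4 and 52.1 CPM, without overlap. UGT1A1 fell by 0.20 on the log2 scale (± 0.07, adjusted p = 0.0118), a call lost without Coptidis Rhizoma low replicate 3 (adjusted p = 0.0563). Wortmannin gave 39.5, 39.0 and 40.3 CPM, the lowest group of all 20, and UGT1A1 fell by 0.34 against vehicle (adjusted p = 0.000188). The 4 highest group means were those of Scutellariae Radix medium (70.0 CPM) and high (69.6 CPM), fresh ginger high (61.1 CPM) and ginger high (59.8 CPM).

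UGT1A10 stood at 361.6, 343.7 and 335.8 CPM in vehicle. Fresh ginger high gave 421.5, 469.4 and 455.2 CPM, ginger high 427.3, 472.4 and 419.9 CPM, and Scutellariae Radix high 452.8, 430.9 and 417.4 CPM. These 9 libraries all lay above every vehicle library and above every low-dose library of their own extract. Against the low dose the log2 change was 0.37 ± 0.05 with fresh ginger (adjusted p = 3.48e-06), 0.33 ± 0.05 with ginger (adjusted p = 6.94e-05) and 0.27 ± 0.05 with Scutellariae Radix (adjusted p = 5.68e-05). Coptidis Rhizoma reached its highest level at the medium dose: the mean was 407 CPM there, 359 CPM at the low dose and 367 CPM at the high dose. The step from medium to high was a fall of 0.15 on the log2 scale (adjusted p = 0.014), lost without Coptidis Rhizoma medium replicate 2 (adjusted p = 0.063) and without the filter on low counts (adjusted p = 0.15).

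For the summed locus, which does not depend on the division of reads, the high dose exceeded the low dose by 0.37 ± 0.05 with fresh ginger (adjusted p = 3.54e-07), 0.35 ± 0.05 with ginger (adjusted p = 2.87e-06) and 0.32 ± 0.05 with Scutellariae Radix (adjusted p = 6.72e-07). With Coptidis Rhizoma the change was 0.02 ± 0.05 (adjusted p = 0.745). Fitted on the 6 libraries compared alone, the calls of both gingers were lost (adjusted p = 0.0858 for fresh ginger and 0.0635 for ginger). The summed level was 510.7 CPM in vehicle and ranged from 491.0 (Pinelliae Tuber low) to 669.9 CPM (fresh ginger high) between groups. Among the other 6 UGT1A genes, UGT1A8 rose with fresh ginger (log2 change 0.29, adjusted p = 0.0112) and ginger (0.30, adjusted p = 0.00903). The ginger call was lost without ginger low replicate 1 or ginger high replicate 2. The fresh ginger call did not hold in every alternative run either (highest adjusted p = 0.27). UGT1A9 fell by 1.03 on the log2 scale with Coptidis Rhizoma, from 1.44 to 0.707 CPM (adjusted p = 0.00606).

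**Figure D3:**
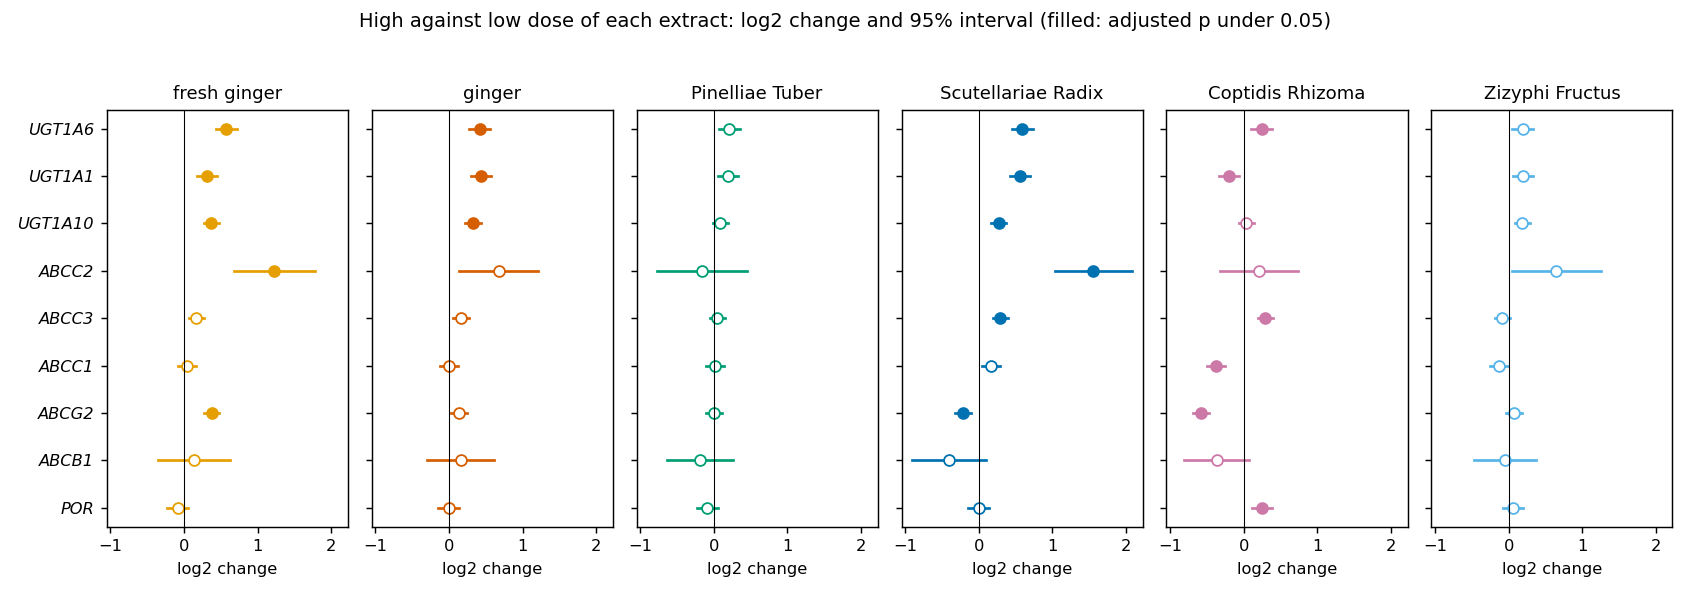
Log2 change of the high against the low dose (horizontal axes) of each gene (vertical axes) in the 6 extracts. Points are fitted changes, bars nominal 95% intervals, and filled points have an adjusted p under 0.05. The 3 UGT1A genes lie to the right of 0 in fresh ginger, ginger and Scutellariae Radix. UGT1A1, ABCC1 and ABCG2 lie to the left of 0 in Coptidis Rhizoma.

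POR (ENSG00000127948, chr7:75899200-75986855) passes electrons from NADPH to cytochromes P450 and to haem oxygenase. It moved least of the 9 genes, between 78.4 (ginger medium) and 99.7 CPM (Coptidis Rhizoma high). Coptidis Rhizoma gave 101.3, 104.3 and 93.5 CPM at the high dose, against 83.5, 83.8 and 85.1 CPM at the low dose and a mean of 81.7 CPM at the medium dose. The high dose lay apart from both, with a log2 change of 0.24 ± 0.07 against the low dose (adjusted p = 0.00194) and 0.29 ± 0.07 against the medium dose (adjusted p = 0.000458). Wortmannin stood at 97.4 CPM against 85.9 CPM in vehicle, which missed the threshold (adjusted p = 0.0518).

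ABCC2 (ENSG00000023839, chr10:99782640-99852594) is the apical pump for glucuronides. Its counts were few, 6 to 86 per library (median 28), and the median SD within a group was 21.5% of the mean. Vehicle libraries stood at 0.690, 0.633 and 1.02 CPM. Scutellariae Radix gave 2.65, 3.34 and 2.85 CPM at the high dose, 2.41, 2.02 and 1.46 CPM at the medium dose and 1.18, 1.12 and 0.751 CPM at the low dose. The 3 doses did not overlap. The log2 change was 1.55 ± 0.26 for high against low (adjusted p = 7.78e-06). Medium against low gave 0.98 ± 0.27 (adjusted p = 0.0257), a call lost when Scutellariae Radix medium replicate 1 or 2, or low replicate 2 or 3, was left out (adjusted p = 0.0569 to 0.257).

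Fresh ginger gave 2.83, 2.20 and 3.05 CPM of ABCC2 at the high dose and 0.900, 1.14 and 1.33 CPM at the low dose. The groups did not overlap, and the log2 change was 1.23 ± 0.27 (adjusted p = 0.00764), lost without fresh ginger low replicate 1 (adjusted p = 0.0586) or high replicate 3 (adjusted p = 0.0598). Ginger high, at 1.76, 1.3 and 2.56 CPM, lay above vehicle by 1.31 ± 0.28 (adjusted p = 0.00774). Without vehicle replicate 1 or 2 or ginger high replicate 3 that adjusted p became 0.0568, 0.143 and 0.211. Wortmannin gave 2.09, 2.49 and 2.22 CPM, all above vehicle, with a log2 change of 1.55 ± 0.28 (adjusted p = 4.12e-05).

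With Coptidis Rhizoma high, ABCC2 libraries stood at 0.853, 1.80 and 1.29 CPM and overlapped those of vehicle. The log2 change against vehicle was 0.78 ± 0.29 (adjusted p = 0.0203), but 0.50 without Coptidis Rhizoma high replicate 2 (adjusted p = 0.204), and the call also ended without vehicle replicate 1 (adjusted p = 0.0589) or 2 (adjusted p = 0.117). Against its own low dose it was 0.21 ± 0.26 (adjusted p = 0.531). Zizyphi Fructus low had the lowest group mean, 0.689 CPM, and Scutellariae Radix high the highest, 2.95 CPM, a ratio of 4.28.

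ABCG2 (ENSG00000118777, chr4:88090264-88231322), the apical pump also called breast cancer resistance protein, exports sulphates, flavonoids and their conjugates. Vehicle libraries stood at 74.0, 76.7 and 82.1 CPM. Fresh ginger gave 102.5, 108.3 and 102.0 CPM at the high dose and 72.5, 86.5 and 81.3 CPM at the low dose. The high dose held the 3 highest libraries of all 60, with a log2 change of 0.37 ± 0.05 against the low dose (adjusted p = 6.36e-06). Ginger high, at 90.5, 94.4 and 89.0 CPM, lay above vehicle by 0.23 ± 0.05 (adjusted p = 0.0142), but this call was lost without the 4 libraries that stand apart (adjusted p = 0.215), without the filter on low counts (adjusted p = 0.0821) and without vehicle replicate 1 or 2 or ginger high replicate 1 or 2 (adjusted p = 0.0548 to 0.17).

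At the other end, Coptidis Rhizoma gave 54.3, 58.0 and 61.5 CPM of ABCG2 at the high dose, a mean of 82.4 CPM at the medium dose, and 88.2, 86.7 and 85.3 CPM at the low dose. The high dose held the 3 lowest libraries of all 60. ABCG2 fell by 0.58 ± 0.05 against the low dose (log2, adjusted p = 1.85e-13) and by 0.51 against the medium dose (adjusted p = 2.3e-11). Scutellariae Radix gave 73.3, 73.6 and 71.7 CPM at the high dose, a mean of 89.3 CPM at the medium dose, and 84.9, 86.5 and 82.2 CPM at the low dose. High lay below both, so ABCG2 did not follow UGT1A6 there: it fell by 0.21 ± 0.05 against low (adjusted p = 0.00247) and by 0.29 against medium (adjusted p = 9.44e-05). Wortmannin, at a mean of 92.4 CPM, lay above vehicle by 0.25 ± 0.05 (adjusted p = 0.000415). The vehicle mean was 77.6 CPM, and Zizyphi Fructus medium (90.35 CPM) and high (90.2 CPM), which had no call against vehicle, stood near wortmannin.

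ABCB1 (ENSG00000085563, chr7:87503633-87713323), the multidrug pump P-glycoprotein, had few reads. Counts were 10 to 34 per library, and group means ran from 0.547 (Scutellariae Radix high) to 1.15 CPM (wortmannin). The one call was Scutellariae Radix high (0.483, 0.530 and 0.630 CPM) against Pinelliae Tuber high (0.888, 0.902 and 0.947 CPM), a log2 change of -0.73 ± 0.23 (adjusted p = 0.0454). It was lost when any 1 of the 6 libraries was left out (adjusted p = 0.055 to 0.202). Against its own low dose the same group gave -0.40 ± 0.25 (95% interval -0.90 to 0.10, adjusted p = 0.444).

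ABCC3 (ENSG00000108846, chr17:50634777-50692252) was the most abundant of the pumps. Vehicle had the lowest mean of the 20 groups, with libraries at 426.8, 472.3 and 472.9 CPM. Coptidis Rhizoma high gave 620.5, 659.8 and 663.8 CPM, wortmannin 622.2, 639.4 and 638.1 CPM and Scutellariae Radix high 599.5, 619.4 and 668.3 CPM, and these 3 groups overlapped one another. Against vehicle the log2 changes were 0.50 ± 0.05 (adjusted p = 8.19e-12), 0.47 ± 0.05 (adjusted p = 7.87e-10) and 0.46 ± 0.05 (adjusted p = 7.63e-10).

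Inside a set the changes of ABCC3 were smaller. Coptidis Rhizoma low stood at 522.0, 521.9 and 541.9 CPM, and high exceeded low by 0.29 ± 0.05 (adjusted p = 3.58e-06). Scutellariae Radix low stood at 505.7, 525.9 and 510.7 CPM, and high exceeded low by 0.29 ± 0.05 (adjusted p = 2.43e-05). For both gingers the high-dose libraries lay above the low-dose ones, with log2 changes of 0.17 ± 0.05 (fresh ginger, adjusted p = 0.0809) and 0.16 ± 0.05 (ginger, adjusted p = 0.134) that missed the threshold. Part of the distance from vehicle was shared by the low doses: Coptidis Rhizoma low exceeded vehicle by 0.21 ± 0.05 (adjusted p = 0.0486), a call lost without any 1 of the 6 libraries (adjusted p = 0.0582 to 0.612) and without the 4 libraries that stand apart (adjusted p = 0.136).

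ABCC1 (ENSG00000103222, chr16:15949577-16143074), a basolateral pump of glutathione conjugates, stood at 90.9, 105.3 and 102.9 CPM in vehicle. Coptidis Rhizoma gave 78.9, 87.5 and 88.5 CPM at the high dose, a mean of 105.8 CPM at the medium dose, and 112.2, 107.5 and 111.5 CPM at the low dose. The high dose lay below both, and ABCC1 fell by 0.38 ± 0.06 against low (log2, adjusted p = 7.97e-07) and by 0.31 against medium (adjusted p = 2.88e-05). Scutellariae Radix high, at 119.0, 121.9 and 123.3 CPM, was the highest group: it lay above vehicle by 0.28 ± 0.06 (adjusted p = 0.000463) and above its low dose by 0.17 ± 0.06, which missed the threshold (adjusted p = 0.0516). In all 4 libraries that stand apart, ABCC1 and ABCC3 had the lowest value of their group. In Zizyphi Fructus high, for example, replicate 3 had 85.2 CPM of ABCC1 against 110.6 and 107.1, and 408.7 CPM of ABCC3 against 478.0 and 486.3. Without those libraries the ABCC3 call of Coptidis Rhizoma low was lost, and no other call of ABCC1 or ABCC3.

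**Figure D4:**
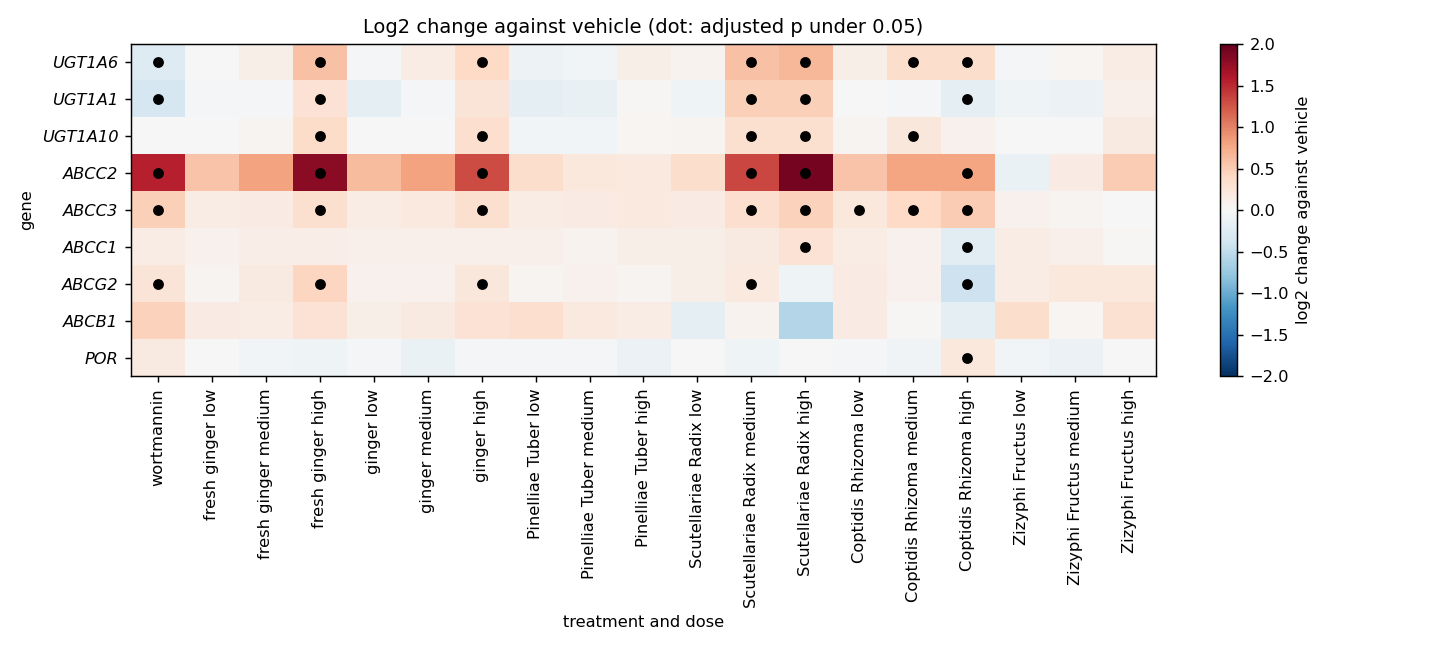
Log2 change against vehicle (colour scale) of the 9 genes in the 19 treatments; a dot marks an adjusted p under 0.05. Calls stand in wortmannin, in the high doses of fresh ginger and ginger, in the high and medium doses of Scutellariae Radix (6 each) and in all doses of Coptidis Rhizoma (7, 3 and 1), and no Pinelliae Tuber or Zizyphi Fructus dose has one.

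Set against all genes, the counts of called members differed in weight between treatments. Fresh ginger high against low called 5 of the 9 genes, all higher (UGT1A6, UGT1A1, UGT1A10, ABCC2 and ABCG2), where 1.79% of all tested genes were called. The median log2 change of the 9 genes was 0.31, beside -0.01 over all genes. When only the 6 libraries compared were fitted, 1 of the 5 calls was left, that of UGT1A6, and genes called fell from 298 to 23. Ginger high against low called 3, all higher (the UGT1A genes), with 0.915% of all genes called, and UGT1A10 was lost when only the 6 libraries compared were fitted (adjusted p = 0.0675). Scutellariae Radix high against low called 6 (5 higher, ABCG2 lower), with 16.3% of all genes called. Coptidis Rhizoma high against low called 6 (3 higher and 3 lower), with 52.4% of all genes called, so that count is close to the background. Pinelliae Tuber (0.0421% of all genes) and Zizyphi Fructus (0.0482%) called 0 of the 9 genes by edgeR. An unadjusted p under 0.05 was reached by 2 of the 9 genes with Pinelliae Tuber, where 544 of all 16608 genes reached it. With Zizyphi Fructus 5 of the 9 genes and 4051 of all genes did. DESeq2 called 1 of the 9 genes with Zizyphi Fructus, and 1185 of all genes. Without Zizyphi Fructus high replicate 1 edgeR called 4 of the 9 genes, and without replicate 2 it called 2. Over the alternative runs of that comparison the number called of all genes ran from 0 to 4375. These member counts are therefore no result about the 9 genes.

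In Zizyphi Fructus all 3 UGT1A genes, which share reads, had their high-dose libraries above the low-dose ones without passing the test. How many of all genes had such separate libraries was not counted, and 4051 of 16608 had an unadjusted p under 0.05. The log2 changes were 0.19 ± 0.07 for UGT1A6 (adjusted p = 0.0932), 0.19 ± 0.07 for UGT1A1 (adjusted p = 0.081) and 0.19 ± 0.05 for UGT1A10 (adjusted p = 0.062). The highest UGT1A10 value, 426.9 CPM against 363.4 and 385.1, was that of high replicate 3, one of the libraries that stand apart.

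Between the dose steps, Scutellariae Radix medium against low called 4 of the 9 genes, all higher (3.35% of all genes), and high against medium called 1, lower (5.09% of all genes). Coptidis Rhizoma medium against low called 1 (ABCC3, log2 change 0.19, adjusted p = 0.0435, with 1.3% of all genes), a call lost without any 1 of the 6 libraries. High against medium called 5, of which 4 were lower (46.5% of all genes). Most of the UGT1A change of Scutellariae Radix was thus present at 100 µg/mL, while ABCG2, ABCC1 and POR in Coptidis Rhizoma moved between 58 and 290 µg/mL.

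Against vehicle, the share of all genes called was 2.08% for fresh ginger high (6 of the 9 genes called, all higher) and 0.789% for ginger high (5, all higher). It was 20.3% for Scutellariae Radix high (6, all higher), 6.64% for its medium dose (6, all higher) and 53.8% for Coptidis Rhizoma high (4 higher and 3 lower). Coptidis Rhizoma medium called 3, all higher (6.32% of all genes), its low dose 1 (0.397%), and wortmannin 5, of which 2 were lower (20.6%). The 5 calls of ginger high became 0 when only its own and the vehicle libraries were fitted, and 3 without vehicle replicate 1 or 2. Of the other calls, UGT1A1 in fresh ginger high was lost without vehicle replicate 3 (adjusted p = 0.0582) or fresh ginger high replicate 1 (adjusted p = 0.0505), and UGT1A1 in Coptidis Rhizoma high without vehicle replicate 1 (adjusted p = 0.0629) or 2 (adjusted p = 0.0563). ABCG2 in Scutellariae Radix medium was lost without vehicle replicate 1 (adjusted p = 0.113) or medium replicate 1 (adjusted p = 0.0784). The remaining medium and low doses, and both other extracts, called 0 of the 9 genes by edgeR, with 746 to 3509 genes at an unadjusted p under 0.05. In those comparisons 0.187% of all genes were called for Pinelliae Tuber high, 0.126% for Scutellariae Radix low, 0.0482% for Pinelliae Tuber medium, 0.0181% for Zizyphi Fructus high, 0.012% for ginger medium, Pinelliae Tuber low and Zizyphi Fructus low, and 0% for the rest. In wortmannin, markers of other cells summed to 18.6 to 19.4 CPM per library against 12.8 to 15.2 CPM in vehicle, and of the 4 that could be tested 1, CD68, was higher (adjusted p = 0.00743). Their part in the wortmannin results was not tested.

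Extracts of the same set were compared at 500 µg/mL. Scutellariae Radix against Pinelliae Tuber called 7 of the 9 genes (5 higher and 2 lower, with 16.9% of all genes called). UGT1A6 was higher by 0.55 ± 0.07 (log2, adjusted p = 1.31e-08) and ABCC2 by 1.71 ± 0.25 (adjusted p = 6.02e-07). ABCG2 was lower by 0.15 ± 0.05 (log2 change -0.15, adjusted p = 0.0487), a call lost without any 1 of the 6 libraries. Ginger against fresh ginger called 0 genes of all 16608 by edgeR (0% of all genes, 1233 at an unadjusted p under 0.05) and 2 by DESeq2, but 158 by edgeR without the filter on low counts. The dried and the fresh rhizome differed in UGT1A6 by -0.19 (95% interval -0.33 to -0.05, adjusted p = 0.654), in ABCC2 by -0.49 (-0.98 to -0.00, adjusted p = 0.654) and in ABCG2 by -0.19 (-0.30 to -0.09, adjusted p = 0.463). All 3 ginger libraries lay below the fresh ginger ones for ABCG2, and the groups overlapped for UGT1A6 and ABCC2. These intervals leave room for a lower response to ginger, and the test does not show that the rhizomes act alike.

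The high-against-low changes of Scutellariae Radix and Coptidis Rhizoma were compared as an interaction term, at doses that differ between the extracts. It called 7 of the 9 genes (6 higher in Scutellariae Radix, POR lower, with 38.8% of all genes called). The difference was 0.75 ± 0.09 for UGT1A1 (log2, adjusted p = 4.46e-09) and 0.54 ± 0.09 for ABCC1 (adjusted p = 9.89e-07). ABCC2 (1.35 ± 0.37, adjusted p = 0.00291) and ABCG2 (0.37 ± 0.07, adjusted p = 7.34e-05) also differed, as did the summed UGT1A locus (0.30 ± 0.07, adjusted p = 0.000247). POR (-0.25 ± 0.10, adjusted p = 0.0355) lost its call when 1 of 8 libraries was left out (adjusted p = 0.0527 to 0.0898). ABCC3 was not called, and rose by 0.29 in each extract.

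Counts from this and the following lists stand beside the share of all genes called at the high against the low dose. That share was 1.79% with fresh ginger, 0.915% with ginger, 16.3% with Scutellariae Radix and 52.4% with Coptidis Rhizoma. A list count near that share is no result about the list. The supply of the sugar donor was read from 5 genes that make, carry or split off glucuronic acid. UGDH, which oxidises UDP-glucose to UDP-glucuronic acid, rose with 4 extracts at the high against the low dose: the log2 change was 0.31 with fresh ginger (adjusted p = 2.99e-05), 0.20 with ginger (adjusted p = 0.0211), 0.39 with Scutellariae Radix (adjusted p = 9.93e-09) and 0.56 with Coptidis Rhizoma (adjusted p = 1.69e-14). The ginger value is 0.14 without the 4 libraries that stand apart (adjusted p = 0.181). The fresh ginger call of UGDH did not hold in every alternative run either (highest adjusted p = 0.287). SLC35D1, a carrier of UDP-glucuronic acid into the endoplasmic reticulum, fell by 0.40 with Scutellariae Radix and by 0.63 with Coptidis Rhizoma. GUSB, the lysosomal glucuronidase, fell by 0.46 with Coptidis Rhizoma. In all, 1 of the 5 genes rose and 3 fell with Coptidis Rhizoma, 2 rose and 1 fell with Scutellariae Radix, 1 rose with each ginger, and none was called with Pinelliae Tuber or Zizyphi Fructus.

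UGT genes outside the locus were sparse, and 3 of 13 could be tested. All 3 fell with Scutellariae Radix (16.3% of all genes called) and with Coptidis Rhizoma (52.4%). UGT2A3 went from 1.248 to 0.470 CPM with Scutellariae Radix (log2 change -1.39) and from 1.12 to 0.432 CPM with Coptidis Rhizoma (-1.37). UGT2B7, which conjugates morphine and steroids, changed by -1.21 and -0.97. UGT8, which makes galactosylceramide, changed by -0.20 and -0.50. None of the 3 was called with either ginger. Enzymes of sulphation, glutathione and related conjugation (23 of 28 tested) showed 0 calls with either ginger. With Scutellariae Radix 2 were higher and 4 lower, beside 16.3% of all genes called. With Coptidis Rhizoma 5 were higher and 9 lower, beside 52.4% of all genes called. SULT2B1, a cholesterol sulphotransferase, rose by 0.56 and PAPSS2, which makes the sulphate donor, fell by 0.47 with Scutellariae Radix. With Coptidis Rhizoma the glutathione transferases GSTM4 and GSTA4 rose by 1.26 and 0.95.

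Of 10 tested exporters outside the 9 genes, 2 rose and 2 fell with Scutellariae Radix (16.3% of all genes called). With Coptidis Rhizoma (52.4% of all genes called) 3 rose and 3 fell. SLC47A2, a proton-coupled exporter of organic cations, rose by 1.23 and 0.97. ABCC4, an exporter of cyclic nucleotides and conjugates, fell by 0.32 and 0.53. Of 8 tested uptake carriers, 5 rose and 1 fell with Scutellariae Radix, 3 rose and 1 fell with Coptidis Rhizoma and with fresh ginger, and 1 rose with ginger. SLCO2B1, an organic anion carrier, was the one that fell with Scutellariae Radix (log2 change -0.72) and fresh ginger (-0.81), and both calls were lost without the filter on low counts (adjusted p = 0.054 and 0.12). SLC22A3, an organic cation transporter, rose with 4 extracts: by 0.64 with fresh ginger, 0.58 with ginger, 1.13 with Scutellariae Radix and 1.61 with Coptidis Rhizoma. Its fresh ginger call did not hold in every alternative run (highest adjusted p = 0.165). SLCO4A1, of the carrier family of SLCO2B1, rose by 0.80 with Scutellariae Radix (adjusted p = 1.17e-14) and fell by 0.95 with Coptidis Rhizoma (adjusted p = 8.37e-18).

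Partners of POR moved much more than POR. The list held P450 and haem oxygenase genes, and also SQLE, CYB5A, CYB5B and CYB5R3. Of 22 tested, 10 rose and 2 fell with Scutellariae Radix, where 16.3% of all genes were called. With Coptidis Rhizoma 12 rose and 8 fell, where 52.4% of all genes were called. With ginger 3 rose, and with fresh ginger 3 rose and 1 fell (CYP2W1, log2 change -1.04, adjusted p = 0.0383). The CYP2W1 call was lost without the 4 libraries that stand apart, without the filter and with only the libraries compared (adjusted p = 0.564 in the last). CYP1A1 went from 1.16 to 196 CPM with Coptidis Rhizoma (log2 change 7.40, adjusted p = 3.25e-41), from 2.89 to 57.0 CPM with Scutellariae Radix (4.35, adjusted p = 7.19e-32) and from 0.423 to 2.05 CPM with ginger (2.27, adjusted p = 6.53e-07). HMOX1, the inducible haem oxygenase, rose by 1.42 with Scutellariae Radix and 1.76 with Coptidis Rhizoma. CYP4F3, a leukotriene hydroxylase, rose by 1.39 with fresh ginger and by 1.26 with wortmannin. Its fresh ginger call did not hold in every alternative run (highest adjusted p = 0.0759).

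Genes that report NRF2 and AhR activity, a list drawn up with earlier results of these samples in view and so no independent evidence, were set beside the 9 genes. All 10 NRF2 readouts rose with fresh ginger, ginger, Scutellariae Radix and Coptidis Rhizoma, 4 rose with Zizyphi Fructus and 0 with Pinelliae Tuber. All 4 calls of Zizyphi Fructus were lost when only the 6 libraries compared were fitted (adjusted p = 0.68), and those of AKR1C1 and NQO1 also without the 4 libraries that stand apart. AKR1B10, an aldo-keto reductase, rose by 1.21, 0.99 and 1.41 with the first 3. With wortmannin 2 rose (AKR1C1 by 1.21, AKR1B10 by 0.48) and 2 fell (GCLM and SRXN1), where 20.6% of all genes were called. Of 4 AhR readouts, 2 rose with each ginger, 3 with Scutellariae Radix and 4 with Coptidis Rhizoma. Neither fresh ginger call held in every alternative run (highest adjusted p = 0.165 for CYP1B1 and 0.474 for TIPARP). Among 15 tested regulators, HNF4A, a hepatocyte and gut nuclear receptor, fell by 0.67 and NFE2L2, which encodes NRF2, rose by 0.54 with Coptidis Rhizoma. That extract also changed 9 of 12 colon epithelium markers, 3 higher and 6 lower, where 52.4% of all genes were called. Among those that fell, GPA33 went from 4.86 to 1.01 CPM and CEACAM5 from 6.69 to 2.20 CPM. Among those that rose, CDX2 changed by 0.39 on the log2 scale, a call that did not hold in every alternative run (highest adjusted p = 0.0578). The part of these epithelial markers in the Coptidis Rhizoma results was not tested.

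Likeness of pattern was measured as Pearson's r of mean log2 CPM over the 20 groups, which share libraries, scaling and treatments, and it is given as a description. Within the set of 9, UGT1A6 was most like UGT1A10 (0.91) and UGT1A1 (0.85), which share reads, and ABCC2 was like ABCC3 (0.76). Outside the locus, the genes most like UGT1A6 were GSR (0.93), ALDH3A2 (0.92) and ABCB6 (0.91), and those most like UGT1A1 were SERPINB5 (0.93), ABCB6 (0.91) and MYEOV (0.90). For UGT1A10 they were AKR1B10 (0.90), ABCB6 (0.89) and PIR (0.88), and for ABCC2 they were AKR1B10 (0.92), VSIG10L (0.86) and SLC16A5 (0.86). ABCC3 was most like CYP4F3 (0.91), ABCG2 most like LGR5 (0.87), ABCC1 most like XRCC2 (0.95), POR most like WDR13 (0.94) and ABCB1 most like GNPAT (0.83).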

How the data were processed

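Gene-level values for HT29 libraries were deposited by the authors as RSEM's expected counts, not scaled between libraries. Per the submitters' processing notes the build was GRCh38 (hg38) and the tools were STAR 2.7.3a, RSEM 1.3.3, FastQC 0.11.9 and Trim Galore 0.6.5. The annotation release is not given in the sources used here. Of the values, 8.75% were not whole and were rounded. The table's 210 columns of other samples were not used. Symbols came from a reference of gene names (56558 matched), and positions from GENCODE 29 on GRCh38 (57055 matched).

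The 60 libraries entered 1 fit of edgeR 4.0.16 (R 4.3.3, filterByExpr, TMM scaling, robust quasi-likelihood, 1 coefficient per group, 40 residual degrees of freedom). In each of 32 comparisons p-values over 16608 genes were Benjamini-Hochberg adjusted, and a gene was called below 0.05. Standard errors are approximate (size of the change over the root of its F statistic), and 95% intervals rest on them. CPM use the TMM-scaled library sizes. With 20 groups of 3 libraries, counting error is largest for ABCC2 and ABCB1. Between libraries the chi-square per gene was at least 1.99, above sampling noise. Alternatives were DESeq2 size factors, the Wald test of DESeq2 1.42.0, no filter, only the libraries compared, replicate blocks, UGT1A rows summed, and leaving out libraries. The fit was tested on simulated counts.

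The 9 genes and all lists were chosen with earlier results of these data known. From the lists, the called genes with the 4 largest absolute log2 changes and at least 1 CPM in the higher group were eligible for naming. Likeness used the 3 genes with the highest correlation per member. Groups share replicate numbers by their labels, but same-numbered libraries deviated together (every correlation above 0.1) in 1 of 31 comparisons, with correlations of -0.37 to 0.344.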

Additional observations from a re-analysis of the deposited data

Results flagged for a closer look

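For 7 of the 9 genes the change from low to high dose differed between Scutellariae Radix and Coptidis Rhizoma, by a test of the difference itself (interaction term, edgeR quasi-likelihood, adjusted over 16608 genes). The same test called 38.8% of all genes. The values are the log2 change in Scutellariae Radix minus that in Coptidis Rhizoma. The difference was 0.35 for UGT1A6 (0.59 against 0.24), 0.75 for UGT1A1 (0.56 against -0.20) and 0.24 for UGT1A10 (0.27 against 0.03). It was 0.54 for ABCC1 (0.17 against -0.38), 1.35 for ABCC2 (1.55 against 0.21) and 0.37 for ABCG2 (-0.21 against -0.58). For POR it was -0.25 (-0.00 against 0.24), a call lost in several fits that left out 1 library (adjusted p up to 0.0898). UGT1A1 and ABCC1 had opposite signs in the extracts, ABCG2 fell in both, and UGT1A6 rose in both. The doses of these extracts differ, and they lie in different sets.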

How the results depend on the processing

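No result changed its direction under any alternative run. Of 84 calls of the 9 genes, 84 held with a replicate block, as did all 38 that the block by set and number could test; 82 held with DESeq2 size factors, 81 of 82 by DESeq2, 77 without the filter on low counts, 68 with only the libraries compared, and 82 without the 4 libraries that stand apart. Over all fits that left out 1 library, a call was lost in 61 of 546 cases. With UGT1A rows summed into 1 no count of the 9 genes could be made.

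Numbers of the 9 genes called moved as follows. With only the libraries compared, ginger high against vehicle went from 5 to 0, Coptidis Rhizoma low against vehicle from 1 to 0, fresh ginger high against low from 5 to 1 and Coptidis Rhizoma medium against low from 1 to 3. Over all genes these comparisons went, in that order, from 131 to 10, 66 to 25, 298 to 23 and 216 to 482. Without the filter, Pinelliae Tuber high and Zizyphi Fructus medium against vehicle went from 0 to 1, Coptidis Rhizoma high against medium from 5 to 3 and medium against low from 1 to 0. Over all genes these went, in that order, from 31 to 611, 0 to 1472, 7728 to 7449 and 216 to 276. DESeq2 called 1 in place of 0 for Pinelliae Tuber high, Zizyphi Fructus high and Zizyphi Fructus medium against vehicle and for Zizyphi Fructus high against low, and 3 in place of 1 for Coptidis Rhizoma medium against low. Over all genes these went, in that order, from 31 to 62, 3 to 12, 0 to 145, 8 to 1185 and 216 to 245. Without the 4 libraries that stand apart, Coptidis Rhizoma low against vehicle had 0, Scutellariae Radix high against medium 2 and Coptidis Rhizoma medium against low 3. Over all genes these went, in that order, from 66 to 64, 845 to 1234 and 216 to 367. Either replicate block gave 2 for Coptidis Rhizoma medium against low. With 1 library left out, the number was 3 to 5 for ginger high against vehicle, 0 for Coptidis Rhizoma low against vehicle and medium against low, and 0 to 4 for Zizyphi Fructus high against low.

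For the summed UGT1A locus, only the libraries compared gave 0.33 for ginger high against vehicle (adjusted p = 0.357), 0.38 for fresh ginger high against low (adjusted p = 0.0858) and 0.33 for ginger high against low (adjusted p = 0.0635), and no filter gave -0.12 for Coptidis Rhizoma high against medium (adjusted p = 0.234). The cause of these moves was not tested. Counts over all genes moved by more than 1.5 times in 18 of 32 comparisons with only the libraries compared (fresh ginger high against low, 298 to 23), in 19 without the filter (298 to 559), in 12 by DESeq2 (Zizyphi Fructus high against low, 8 to 1185), in 12 without the 4 libraries and in 7 with the replicate block. Depth limits ABCC2 and ABCB1, with medians of 28 and 21 counts per library.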
